A study of Homo sapiens with 4 samples.

Results

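The 7 genes described here were ESR1, PGR, GATA3, FOXA1, ERBB2, XBP1 and TFF1, which are used to tell luminal and HER2-driven breast tumors from triple-negative ones, and they were examined in MDA-MB-231 cells, a triple-negative breast cancer (TNBC) line. They are 7 of 20090 protein-coding genes and were taken by name. A chromatin loop was assigned to a gene when at least 1 of its anchors overlapped the gene body extended by 20 kb on each side. By this rule, 44 of the 77275 loop calls in 4 Hi-C libraries belonged to the 7 genes. The libraries were 2 of wild-type MDA-MB-231 cells given DMSO alone (vehicle) and 2 of the same line given 75 nM THZ1, an inhibitor of CDK7, each collected at 48 h. The series' design text calls the duplicates technical replicates, while the study's methods say that cells were treated in duplicate, so SDs and p-values below measure the spread between 2 libraries, which may be technical. The comparison asks whether blocking CDK7 changes how chromatin folds. All libraries come from 1 cell line, and no RNA was measured in these files, so the state of the genes themselves and the labelled cell type could not be checked against expression.

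ESR1 encodes the estrogen receptor alpha and PGR the progesterone receptor, a well-known estrogen receptor target. FOXA1 is a pioneer factor that opens chromatin for the estrogen receptor, and GATA3 is a transcription factor of the luminal lineage. XBP1 is a transcription factor of the unfolded protein response that is abundant in luminal tumors, TFF1 is a secreted trefoil peptide induced by estrogen, and ERBB2 encodes HER2, the receptor tyrosine kinase amplified in HER2-positive tumors. In Hi-C, a loop is a pair of places, the anchors, that touch more often than their surroundings. Many loops are held by cohesin and the DNA-binding protein CTCF, often at a pair of CTCF motifs that point toward each other. A contact domain is a stretch within which contacts are denser than across its ends.

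Loop calls give the observed contacts between both anchors and the contacts expected from the ring of pixels around them, the donut neighborhood. The ratio of these values is used below as the enrichment of a loop, with an exact 95% Poisson interval that covers counting error only. Loop size was measured from the start of one anchor to the start of the other. The lists hold no read totals, and the study's methods give a range of read depth without saying which library had which, so the depth behind each library's calls was not compared here. The vehicle libraries held 20768 and 24219 loops and 1198 and 1398 domains, and the THZ1 libraries held 17222 and 15066 loops and 2477 and 2345 domains.

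The sequences that bear on the loops below are shown first. Loops at XBP1 joined the start of this gene to the shared start region of CHEK2 and HSCB, and most loops at FOXA1 held its start, so the promoters of XBP1, CHEK2 and FOXA1 are given from RefSeq on GRCh38.p14, each as 300 bases from upstream of the start to just past it. Capitals mark GC boxes, searched as GGGCGG on both strands. This motif occurred in 45.0% of 35116 promoters of the same length.

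XBP1 promoter, chr22:28800520-28800819, minus strand: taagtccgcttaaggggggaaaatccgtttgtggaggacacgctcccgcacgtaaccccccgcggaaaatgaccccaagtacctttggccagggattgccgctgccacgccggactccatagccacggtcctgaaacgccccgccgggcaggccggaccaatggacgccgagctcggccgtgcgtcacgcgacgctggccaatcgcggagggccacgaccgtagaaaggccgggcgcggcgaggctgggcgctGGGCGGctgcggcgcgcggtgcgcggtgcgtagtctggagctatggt
CHEK2 promoter, chr22:28741771-28742070, minus strand: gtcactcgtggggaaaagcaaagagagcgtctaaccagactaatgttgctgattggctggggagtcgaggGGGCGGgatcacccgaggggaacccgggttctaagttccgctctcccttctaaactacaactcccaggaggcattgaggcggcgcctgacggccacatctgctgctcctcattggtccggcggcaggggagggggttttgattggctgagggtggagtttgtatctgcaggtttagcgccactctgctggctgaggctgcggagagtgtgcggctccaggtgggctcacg
FOXA1 promoter, chr14:37595200-37595499, minus strand: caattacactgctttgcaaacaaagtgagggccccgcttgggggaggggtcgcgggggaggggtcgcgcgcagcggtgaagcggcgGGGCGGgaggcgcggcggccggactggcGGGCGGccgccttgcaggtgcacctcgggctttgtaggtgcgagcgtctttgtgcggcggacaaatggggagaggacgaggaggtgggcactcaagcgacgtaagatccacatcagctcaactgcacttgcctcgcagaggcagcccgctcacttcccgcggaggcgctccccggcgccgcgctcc

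The promoters of CHEK2 and HSCB face away from each other on opposite strands, and the HSCB promoter at chr22:28741789-28742088 covers nearly the same bases. RefSeq promoters were matched for 6 of the 7 genes, and TFF1 was not matched.

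Within the anchors, the core of the CTCF motif was searched as CCANNAGNNGGC on both strands of GRCh37, the build of the loop lists. A selection of sites follows, at the far anchors of loops of FOXA1 and GATA3 and at the first anchor of the loop around ERBB2, with the core in capitals and written so that the core reads from left to right.

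ERBB2, first anchor of the loop around the gene, chr17:37778355-37778414, plus strand: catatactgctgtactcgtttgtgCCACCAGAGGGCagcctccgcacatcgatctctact
FOXA1, far anchor of the 350 kb loop, chr14:37715708-37715767, plus strand: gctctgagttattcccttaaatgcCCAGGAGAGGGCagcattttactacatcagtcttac
GATA3, far anchor of the 300 kb loop, chr10:8402528-8402587, minus strand: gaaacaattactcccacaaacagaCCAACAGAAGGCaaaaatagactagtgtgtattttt
GATA3, far anchor of the 300 kb loop, chr10:8411605-8411664, plus strand: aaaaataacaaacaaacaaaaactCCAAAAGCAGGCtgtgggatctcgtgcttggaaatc
GATA3, far anchor of the 300 kb loop, chr10:8419274-8419333, plus strand: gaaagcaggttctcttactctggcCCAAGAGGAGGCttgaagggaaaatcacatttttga

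The sites of ERBB2 and FOXA1 lie at the left anchor on the plus strand, which is the direction toward the other anchor. The FOXA1 site also lies in the first anchor of a larger loop around FOXA1 that all 4 libraries carried. No core was found in the second anchor of the loop around ERBB2, at 37910001-37915000, or in the FOXA1 anchors of the 340 to 350 kb loop, at 38050001-38075000 and 38060001-38070000, so neither loop had a facing pair of cores by this search. Other anchors at ERBB2 also held cores, among them chr17:37822224-37822283 on the plus strand, chr17:37822838-37822897 on the minus strand and chr17:37895419-37895478 on the minus strand. The GATA3 sites lie in 1 right anchor of 25 kb and point both ways. Wide anchors hold more matches by their length alone. The core was present in 2 of 20 anchors of 5 kb at the 7 genes, 6 of 19 of 10 kb and 9 of 17 of 25 kb, where all anchors of these widths held it in 25.5%, 37.8% and 58.8%. Anchors at the 7 genes overlap each other, so these counts are a description. The estrogen response element, searched as GGTCANNNTGACC, was in none of the 56 anchors at the 7 genes and in 0.509%, 0.918% and 2.15% of all anchors of 5, 10 and 25 kb.

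Loops were called at 6 of the 7 genes and none at PGR. The vehicle libraries held 14 and 12 loops at the 7 genes and the THZ1 libraries 11 and 7. The mean was 13 ± 1.41 (SD, n = 2) in the vehicle libraries and 9 ± 2.83 (SD, n = 2) in the THZ1 libraries, without overlap, a log2 ratio of -0.53 (exact two-sided permutation, p = 0.333, the smallest that 2 against 2 libraries can give). Over all loops the log2 ratio was -0.48, and as a share of each library's loops the 7 genes held 0.0674% and 0.0495% with vehicle, against 0.0639% and 0.0465% with THZ1, which overlap.

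**Figure D1:**
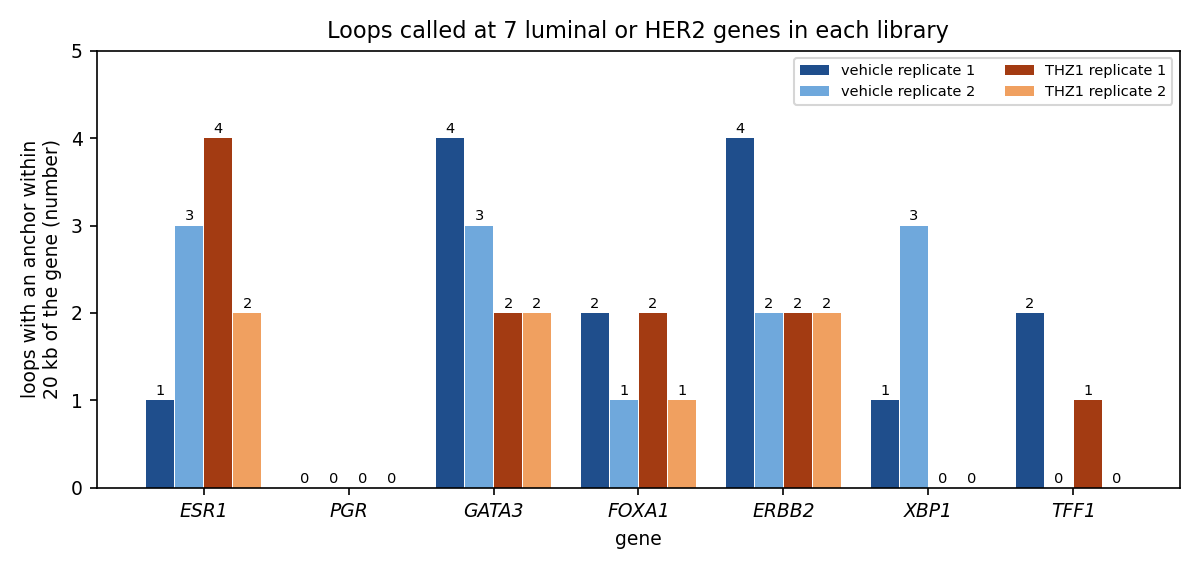
Number of loops (y axis) with an anchor within 20 kb of each of 7 genes (x axis), 1 bar per library. The bars of GATA3 and XBP1 are higher in both vehicle than in both THZ1 libraries, ESR1, FOXA1, ERBB2 and TFF1 overlap, and PGR has no loop.

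GATA3 had 4 and 3 loops with vehicle, against 2 and 2 with THZ1, and XBP1 had 1 and 3 with vehicle, against 0 and 0 with THZ1. These were the 2 genes of the 7 whose vehicle libraries both held more loops than both THZ1 libraries, and none went the other way. Of the 17022 protein-coding genes with a loop in any library, 28.9% had more loops in both vehicle libraries and 3.01% had more in both THZ1 libraries. ESR1 had 1 and 3 loops with vehicle, against 4 and 2 with THZ1, FOXA1 2 and 1 in each condition, ERBB2 4 and 2 with vehicle, against 2 and 2 with THZ1, and TFF1 2 and 0 with vehicle, against 1 and 0 with THZ1. The conditions overlapped for these genes. A loop was present in every library at 4 of the 7 genes, ESR1, GATA3, FOXA1 and ERBB2, where 61.5% of all protein-coding genes had one in every library.

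Ordered by the mean number of loops over 4 libraries, GATA3 stood first with 2.75, followed by ESR1 and ERBB2 with 2.5 each, FOXA1 with 1.5, XBP1 with 1, TFF1 with 0.75 and PGR with 0. Neighbors in this order from GATA3 to TFF1 overlapped between libraries. The window of ESR1 was 513 kb long and that of TFF1 44.3 kb, and a longer window can hold more anchors. Per 100 kb of window, the means were 3.94 loops at GATA3, 3.23 at FOXA1, 3.03 at ERBB2, 2.17 at XBP1, 1.69 at TFF1 and 0.487 at ESR1. Across all protein-coding genes the median was 2 loops, so 3 of the 7 genes stood above it. GATA3 had more loops than 63.7% of the genes, and TFF1 had more than 24.8%.

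**Figure D2:**
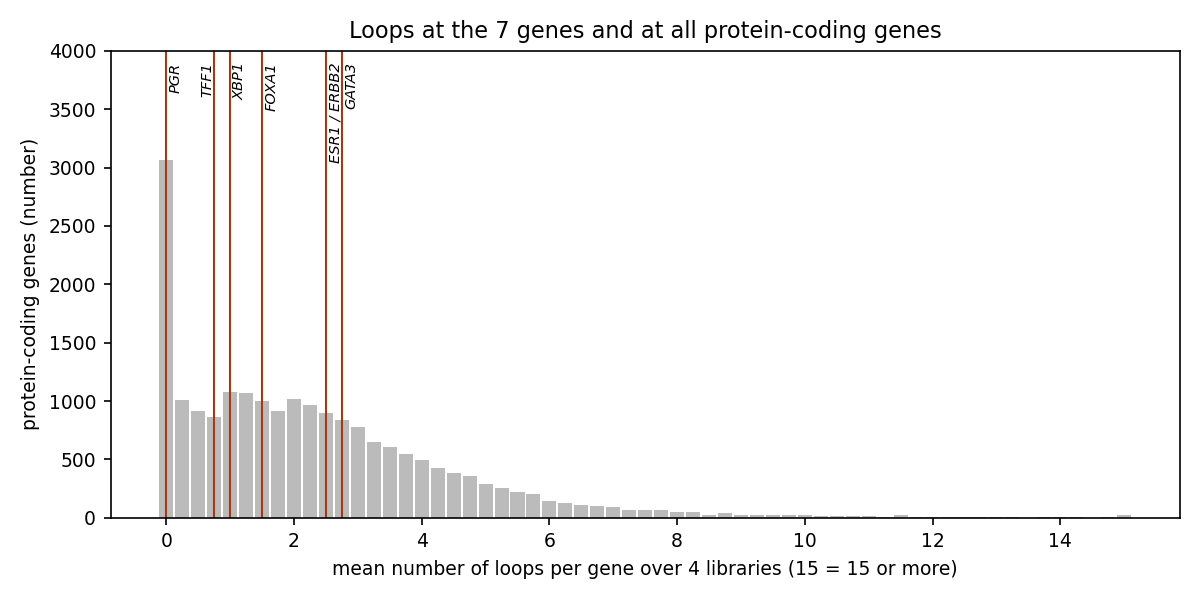
Number of protein-coding genes (y axis) by their mean number of loops over 4 libraries (x axis), with the means of the 7 genes as red lines. PGR lies at 0, TFF1, XBP1 and FOXA1 lie between 0.75 and 1.5, and ESR1, ERBB2 and GATA3 lie between 2.5 and 2.75.

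The loops fell into 24 positions, with calls of the same gene linked when both anchor midpoints lay within 20 kb, and 9 positions held more than 1 call. Of the 14 loops of vehicle replicate 1, 5 were matched in all 4 libraries (35.7%, against 41.9% of all loops of this library), 1 of them, of 100 kb at ERBB2, by its match to the larger loop around that gene. Another 3 were matched in vehicle replicate 2 and in neither THZ1 library (21.4%, against 16.4%), and these lay at GATA3, XBP1 and ERBB2. None of the 11 loops of THZ1 replicate 1 was matched in THZ1 replicate 2 alone, where 4.58% of all its loops were.

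**Figure D3:**
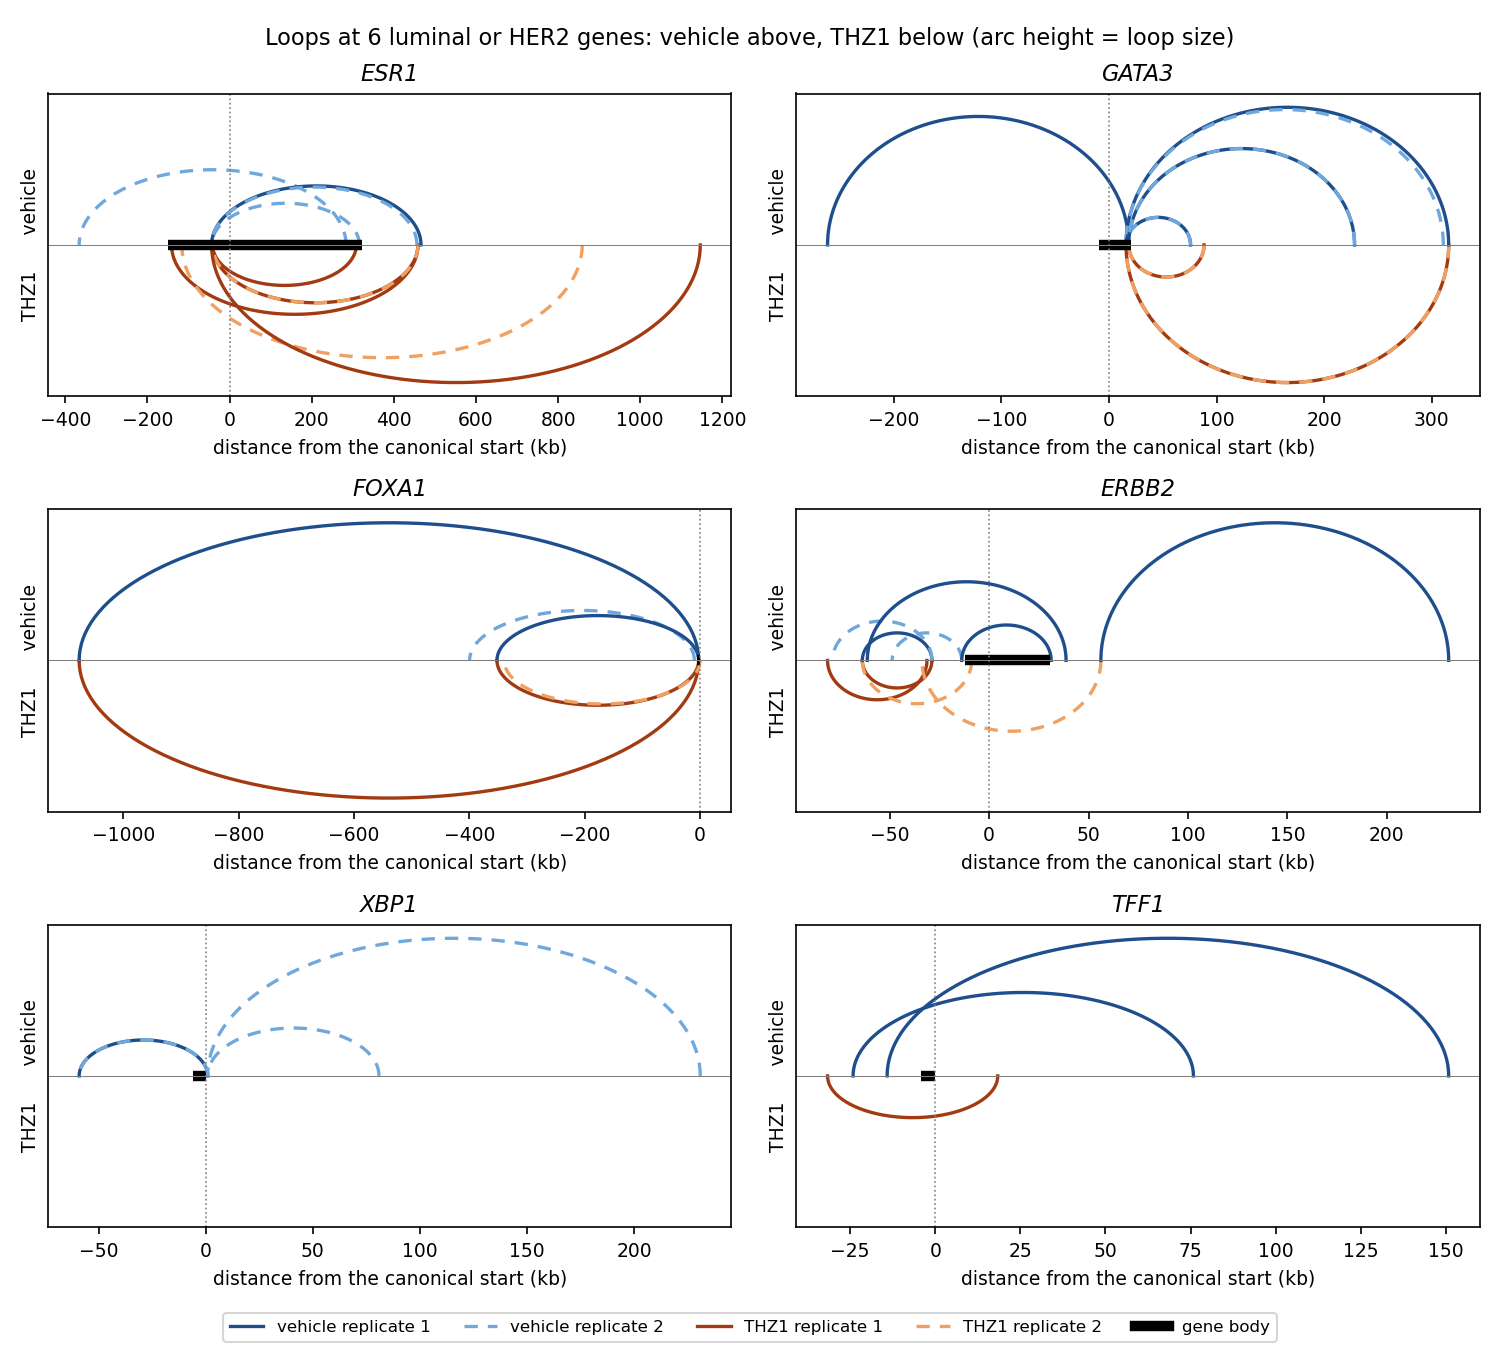
Loops at 6 genes as arcs between anchor midpoints, by distance from the canonical start in kb on the plus strand (x axis), with vehicle above and THZ1 below the line and arc height proportional to loop size. Solid and dashed lines are replicates 1 and 2. Loops of GATA3 start within the gene in all 4 libraries, the arcs of XBP1 are all above the line, and most arcs at ERBB2 stand beside the gene body.

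ESR1 (chr6:151977826-152450754 of GRCh37, as for all genes below, plus strand, canonical start at 152128817) is the longest of the 7 genes, and 10 loop calls at 6 positions had an anchor on its body. None of these anchors held the canonical start. A loop of 500 to 510 kb was called in all 4 libraries. It joined an intron of ESR1 upstream of the canonical start, at 152080001-152090000, to exons of SYNE1, a nuclear envelope gene, at 152580001-152600000. Its enrichment was 6.55 (95% interval 3.88 to 10.4) and 6.74 (4.12 to 10.4) with vehicle, against 6.45 (3.44 to 11.0) and 9.48 (5.31 to 15.6) with THZ1. The intervals of all 4 libraries overlapped. They rest on 18 and 20 contacts with vehicle, read at 10 kb anchors, and on 13 and 15 contacts with THZ1, read at 5 kb anchors. Neither the first nor the second anchor held a CTCF core.

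The other loops of ESR1 were called in fewer libraries. The smallest joined 2 parts of ESR1 over 350 kb in THZ1 replicate 1 and 360 kb in vehicle replicate 2, with enrichments of 2.98 and 6.55. The largest, of 1190 kb, was called in THZ1 replicate 1 alone, with 12 contacts and an enrichment of 8.30. A loop of 650 kb in vehicle replicate 2 joined the 3' part of ESR1 to the starts of RMND1 and ARMT1. A larger loop of 825 kb enclosed the whole ESR1 window, from 151750001 to 152600000, with identical 25 kb anchors in all 4 libraries. Its enrichment was 3.68 and 4.42 with vehicle, against 2.91 and 2.85 with THZ1, lower in both THZ1 libraries.

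PGR (chr11:100900355-101000544, minus strand) had no loop in any library, as had 15.3% of protein-coding genes. The nearest anchor lay 90.4 kb from the gene body in vehicle replicate 1 and 95.4 kb in the other libraries. No loop spanned the gene, and the nearest domain lay 160 to 180 kb away. A missing call does not show that there were no contacts, since the lists hold only loops that passed the caller.

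GATA3 (chr10:8087341-8117161, plus strand, canonical start at 8096651) had 11 calls at 4 positions, and all of them had an anchor on the gene. The anchors lay on its 3' part and not on the canonical start. The loop of 60 to 70 kb was called in all 4 libraries and joined the 3' end of GATA3 at 8110001 to sequence without protein-coding genes. This far anchor lay at 8170001-8175000 in both vehicle libraries and at 8180001-8190000 in both THZ1 libraries. Its enrichment was 3.03 and 3.36 with vehicle, against 2.60 and 2.80 with THZ1. Both THZ1 values lay below both vehicle values, but vehicle calls had 5 kb anchors and THZ1 calls had 10 kb anchors, so anchor width and condition cannot be told apart here.

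The second loop of GATA3 in all 4 libraries spanned 295 to 300 kb to a place without protein-coding genes at 8400001-8425000. It had the same 25 kb anchors in vehicle replicate 1 and both THZ1 libraries, with enrichments of 2.33 (85 contacts), 2.19 (97 contacts) and 1.91 (80 contacts). Vehicle replicate 2 called it at 5 kb anchors with an enrichment of 4.75. At equal width, the intervals of the 3 libraries overlapped. Another loop, of 210 kb, from 8110001-8120000 to 8320001-8330000, was called with identical anchors in both vehicle libraries, with enrichments of 3.34 (37 contacts) and 2.54 (30 contacts), and in neither THZ1 library. A loop of 280 kb was called in vehicle replicate 1 alone. It joined GATA3 to the start of ATP5F1C, a subunit of the mitochondrial ATP synthase, with an enrichment of 7.99.

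FOXA1 (chr14:38058757-38065264, minus strand, canonical start at 38064454) had 6 calls at 3 positions, and 5 of them held the canonical start in an anchor. In each of these 5 calls the same anchor also held the canonical start of TTC6, so the FOXA1 and TTC6 starts cannot be told apart. A loop of 340 to 350 kb to MIPOL1 was called in vehicle replicate 1 and both THZ1 libraries, with enrichments of 3.38 (95% interval 2.51 to 4.45), 3.75 (3.07 to 4.54) and 3.49 (2.13 to 5.38), which overlap. Vehicle replicate 2 had a loop of 390 kb instead, from the start of MIPOL1 to 38050001-38060000, which ends short of the FOXA1 start. The largest loop, of 1075 kb, joined the anchor with the FOXA1 and TTC6 starts to the starts of NKX2-1, a transcription factor of lung and thyroid, and SFTA3. It was called once in each condition, with enrichments of 6.11 in vehicle replicate 1 and 5.30 in THZ1 replicate 1. A loop of 625 to 630 kb around FOXA1 was called in all 4 libraries, with enrichments of 10.4 and 8.95 with vehicle at 10 kb anchors and 23.4 and 10.3 with THZ1 at 5 kb anchors. THZ1 replicate 2 lay within the vehicle range and THZ1 replicate 1 above it, and anchor width and condition cannot be told apart.

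ERBB2 (chr17:37844167-37886679, plus strand, canonical start at 37856317) had 10 calls at 5 positions, but only 3 of them touched the gene body and none held the canonical start. The other calls reached the window from neighboring genes. The most frequent position, of 35 to 55 kb, held 6 calls from all 4 libraries and joined sequence at or upstream of STARD3 to PNMT, PGAP3 or the 5' end of ERBB2, with enrichments from 2.27 to 4.11. At loops this short, a 20 kb match is wide, and these calls need not be 1 loop. The only call with both anchors on ERBB2 spanned 45 kb, from an alternative start of ERBB2 beside the PGAP3 start to an ERBB2 intron beside the MIEN1 start, in vehicle replicate 1 (15 contacts, enrichment 3.11). The largest, of 175 kb, ran from GRB7 and IKZF3, beyond the 3' end of ERBB2, to the ORMDL3 region in vehicle replicate 1 (95 contacts, enrichment 2.14). It was matched in vehicle replicate 2 just outside the ERBB2 window and in neither THZ1 library.

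A loop of 135 kb enclosed ERBB2 in all 4 libraries with identical 5 kb anchors at 37775001-37780000 and 37910001-37915000, and its first anchor holds the CTCF core printed above. Both anchors lay outside the ERBB2 window, and the starts of PGAP3, MIEN1 and GRB7 also lay between them. This loop was added after its values were seen, so its test is a description. Its enrichment was 10.2 (95% interval 7.43 to 13.7) and 8.20 (5.93 to 11.0) with vehicle, against 5.62 (3.82 to 7.98) and 6.15 (4.23 to 8.64) with THZ1. Both THZ1 values lay below both vehicle values. In edgeR's quasi-likelihood test over 2619 loops with identical anchors in all 4 lists, its log2 change was -0.63 (SE 0.21, adjusted p = 0.0356), where 27.5% of these loops were called weaker with THZ1 and 0.0382% stronger and the median log2 change was -0.41. The call was lost whenever 1 library was left out, in fits that called a smaller share of all loops too. There its log2 change ranged from -0.79 (without vehicle replicate 2) to -0.48 (without vehicle replicate 1). With library totals by TMM in place of the expected contacts it was not called (edgeR adjusted p = 0.290). That test called 109 of the 2619 loops weaker and 67 stronger. The edgeR test of loops matched within 20 kb described below did not call it (adjusted p = 0.204), and called 1 of 8429 loops. DESeq2 with its own size factors (adjusted p = 0.997) called none of the 2619 loops. With the donut expectation, DESeq2 gave this loop no adjusted p (unadjusted p = 0.106) and called 17 of the 2619 weaker. Where a fit called few loops, as with the 20 kb match and DESeq2, a lost call says little about this loop. The test with TMM called more loops and still did not call this one. The 825 kb loop around ESR1 had a log2 change of -0.49 (SE 0.21, edgeR adjusted p = 0.0864), which turned to 0.19 with library totals by TMM and 0.21 with DESeq2 size factors in place of the expected contacts. Its observed contacts were 33 and 42 with vehicle, against 42 and 43 with THZ1, and its expected contacts were 8.97 and 9.51, against 14.4 and 15.1.

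**Figure D4:**
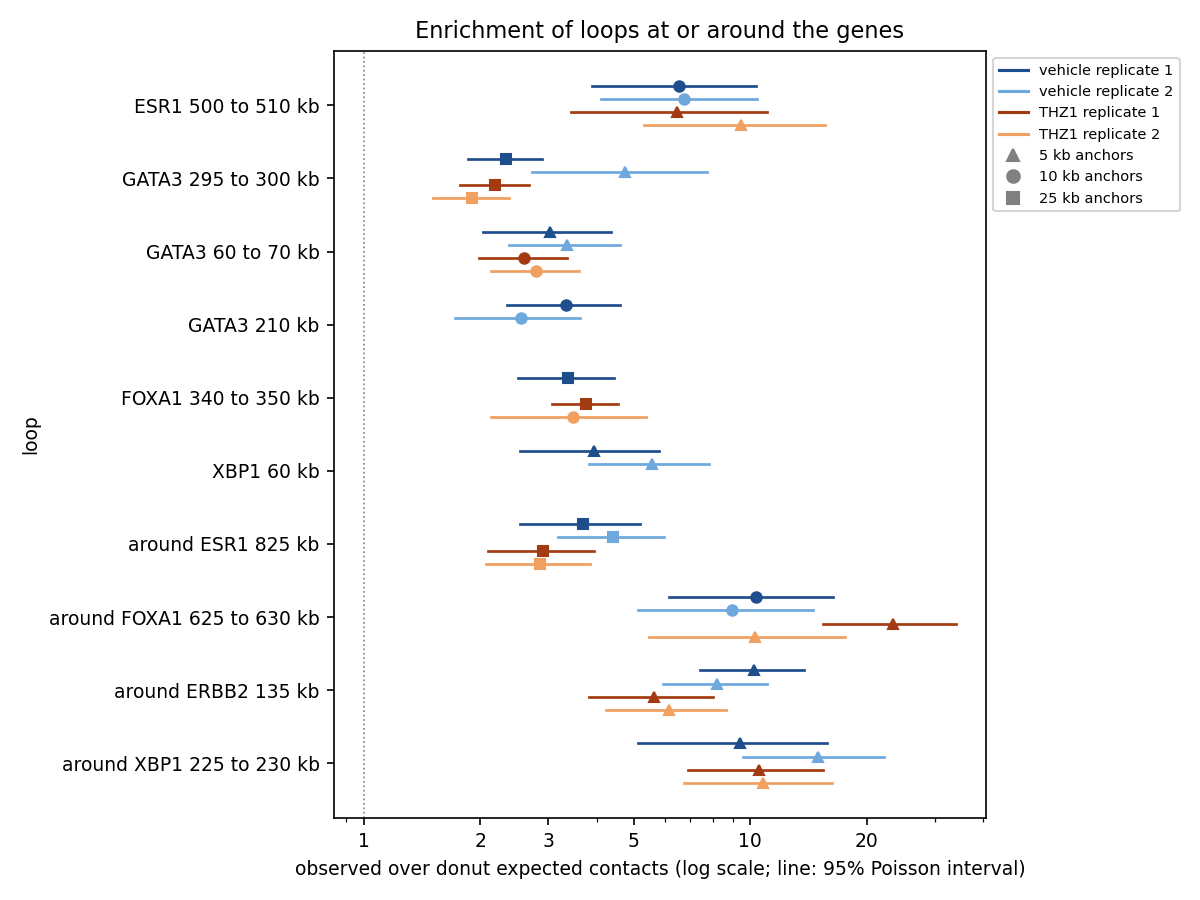
Observed over donut expected contacts (x axis, log scale) with 95% Poisson intervals (lines) for loops at or around the genes (y axis), by library (color) and anchor width (symbol). The loop around ERBB2 has the same 5 kb anchors in all 4 libraries. It lies at 10.2 and 8.20 with vehicle, against 5.62 and 6.15 with THZ1. The ESR1 loop of 500 to 510 kb has overlapping intervals. Loops around genes have both anchors outside the gene window and were added after their values were seen.

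XBP1 (chr22:29190543-29196585, minus strand, canonical start at 29196557) had 4 calls at 3 positions, all with vehicle, and every call held the canonical start in a 5 kb anchor at 29195001-29200000. The loop of 60 kb joined this start to the start region of CHEK2, a DNA damage checkpoint kinase, and HSCB, an iron-sulfur cluster chaperone, at 29135001-29140000. It had identical anchors in both vehicle libraries, with 25 contacts (enrichment 3.93, 95% interval 2.54 to 5.80) and 33 contacts (5.57, 3.83 to 7.82), and it was called in neither THZ1 library. Neither anchor held a CTCF core. Vehicle replicate 2 had 2 more loops, of 80 kb to the start of ZNRF3, a membrane ubiquitin ligase of WNT signaling, with 13 contacts and an enrichment of 4.68, and of 230 kb to a ZNRF3 intron, with 24 contacts and an enrichment of 5.95. The nearest anchor in both THZ1 libraries lay 28.4 kb from the XBP1 body. All 4 calls had 5 kb anchors, and loops of this width numbered 13028 and 15917 with vehicle, against 9563 and 7921 with THZ1. The part of that difference in the XBP1 result was not tested. A larger loop of 225 to 230 kb around XBP1 was present in all 4 libraries, with enrichments of 9.38 and 14.9 with vehicle, against 10.5 and 10.8 with THZ1, which overlap.

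TFF1 (chr21:43782391-43786644, minus strand) had 3 calls at 3 positions, and none touched the gene body. In vehicle replicate 1, loops of 100 kb and 165 kb joined the neighboring TFF2 start to UBASH3A and SLC37A1, with enrichments of 1.88 (77 contacts) and 7.21 (16 contacts). In THZ1 replicate 1, a loop of 50 kb had an enrichment of 2.21. It joined an anchor on TMPRSS3, which overlaps the TFF1 window, to a place without protein-coding genes 6.47 kb from TFF2. Its false discovery rate of 0.039 was the highest of the 44 calls. The second library of each condition had none, so the libraries of 1 condition differed as much as the conditions did. The smallest loop that spanned the gene measured 280 and 130 kb with vehicle and, in the THZ1 libraries, 300 and 125 kb, with enrichments of 3.96 and 3.08 with vehicle, against 5.91 and 2.33 with THZ1.

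None of the 44 calls had identical anchors in all 4 libraries, so no loop of the 7 genes entered the edgeR test of identical anchors. In a second edgeR test of 8429 loops matched within 20 kb whatever their anchor width, 4 loops of the 7 genes were tested and none was called, where 0.0119% of these loops were called weaker and 0 stronger, with 1894 loops at an unadjusted p under 0.05. On simulated counts, this test recovered 39.5% of loops changed 2-fold, and the test of identical anchors recovered 63%. A missing call therefore does not show that a loop was unchanged. In the matched test, the log2 change was 0.24 (SE 0.33, edgeR adjusted p = 0.707) for the ESR1 loop of 510 kb. At GATA3 it was -0.42 (SE 0.29, adjusted p = 0.412) for the loop of 300 kb and -0.25 (SE 0.21, adjusted p = 0.506) for the loop of 60 kb. At ERBB2 it was -0.15 (SE 0.32, adjusted p = 0.836) for the loop of 35 kb. With all 4 libraries each lay within 2 SEs of 0. DESeq2 called none of the 4 either, but with size factors it gave the ESR1 and ERBB2 loops no adjusted p. Over all 8429 loops it called 1 weaker with the donut expectation and, with size factors, 4 weaker and 30 stronger. The GATA3 loop of 300 kb moved to -1.21 (SE 0.32, adjusted p = 0.322) without vehicle replicate 1, which leaves the 5 kb call as the only vehicle value, and to -0.19 (adjusted p = 0.664) without vehicle replicate 2, which leaves the same 25 kb anchors in all 3 libraries. Among 4921 matched loops with the same anchor width in all 4 libraries, 13.1% were called weaker and 0.102% stronger, and the ERBB2 loop of 35 kb, the only one of the 4 in that test, had a log2 change of -0.12 (edgeR adjusted p = 0.81).

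Over all loops at the 7 genes, the median enrichment was 3.23 and 4.71 with vehicle, against 2.98 and 3.39 with THZ1, which overlap. The means were 3.97 ± 1.05 and 3.19 ± 0.291 (SD, n = 2, exact two-sided permutation, p = 0.667). Over all loops of the libraries the median enrichments were 4.60 and 4.60 with vehicle, against 4.10 and 4.04 with THZ1, without overlap. At the 7 genes, 5 and 7 loops had 5 kb anchors with vehicle, against 2 and 3 with THZ1. The median loop size was 170 and 220 kb with vehicle, against 350 and 300 kb with THZ1, without overlap (means 195 ± 35.4 and 325 ± 35.4 kb, SD, n = 2; exact two-sided permutation, p = 0.333). Over all loops of the libraries the median sizes were 140 kb in both vehicle and 200 kb in both THZ1 libraries. The size difference at the 7 genes rests on 7 to 14 loops a library and was absent with a window of 50 kb, where the medians were 210, 218, 228 and 183 kb. Loops of 90 kb or less made up 28.6% and 41.7% of the loops at the 7 genes with vehicle, against 36.4% and 42.9% with THZ1, which overlap. Over all loops these shares were 37.3% and 36.8% in the vehicle libraries and lower in both THZ1 libraries, at 26.2% and 25.5%.

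Contact domains held 1 and 2 of the 7 genes with vehicle, against 2 and 4 with THZ1 (exact two-sided permutation, p = 0.667). Of all protein-coding genes, domains held 11.9% and 13.7% with vehicle, against 21.5% and 21.2% with THZ1. GATA3 lay in a domain in all 4 libraries, as did 5.46% of protein-coding genes. It started at 7830001 in both vehicle libraries and THZ1 replicate 1 and at 7820001 in THZ1 replicate 2, and ended at 9340000 in 3 libraries and at 9010000 in THZ1 replicate 1. Its corner score, the caller's measure of how sharply the domain stands out, was 1.04 and 1.12 with vehicle, against 0.867 and 1.27 with THZ1. The start of this domain coincided with the first anchor of the 280 kb loop of vehicle replicate 1.

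ESR1 lay in a domain in both THZ1 libraries, at 151830001-152590000 (760 kb, score 0.684) and 151860001-152590000 (730 kb, score 0.581), and in neither vehicle library, where the nearest domain lay 838 and 818 kb from the gene. Domains held 6.06% of protein-coding genes in this pattern and 1.12% in the reverse one, and the THZ1 lists held more domains in all. The shared end of both domains met the second anchor of the ESR1 loop that all 4 libraries carried, so the loop was present with vehicle without a called domain. XBP1 lay in a domain of 1230 kb in vehicle replicate 2 (score 0.337) and of 220 kb in THZ1 replicate 2 (score 1.15). TFF1 lay in a domain of 150 kb in THZ1 replicate 2 (score 0.877). PGR, FOXA1 and ERBB2 lay in no domain in any library, as did 68.7% of protein-coding genes.

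**Figure D5:**
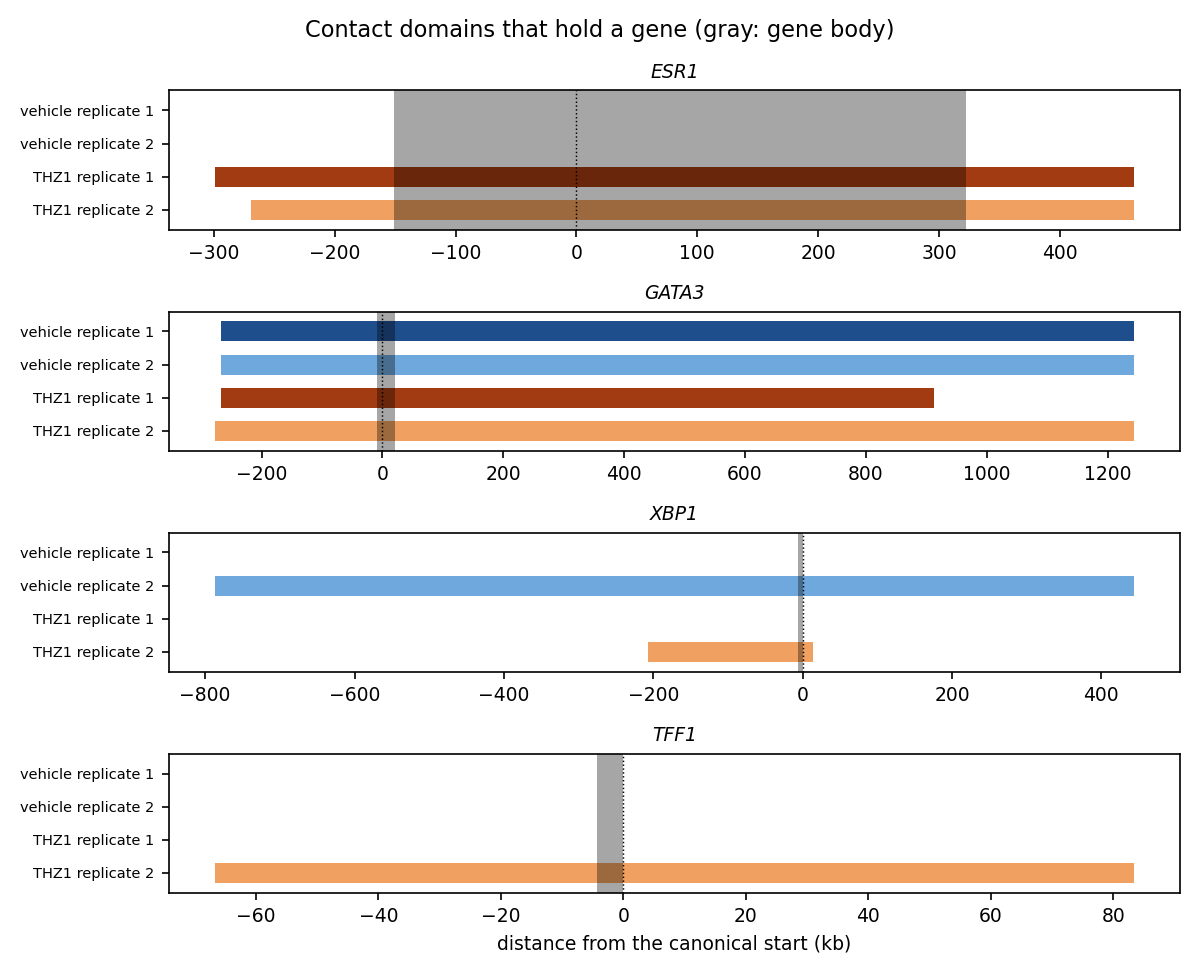
Contact domains that hold ESR1, GATA3, XBP1 or TFF1 in each library (y axis), by distance from the canonical start in kb (x axis), with the gene body in gray. GATA3 has a domain in all 4 libraries, ESR1 only in both THZ1 libraries, XBP1 in the second library of each condition and TFF1 in THZ1 replicate 2.

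Among 27 other luminal genes, 25 had a loop in any library and 20 in every library. Of these genes, 10 had more loops in both vehicle than in both THZ1 libraries and none had more in both THZ1 libraries, beside the 28.9% and 3.01% of all genes with a loop. IGF1R, a growth factor receptor, had the most loops (10 and 11 with vehicle, 8 and 10 with THZ1), followed by STC2, a secreted glycoprotein (8 and 8, then 5 and 7). ERBB3, the partner receptor of HER2 (9 and 7, then 4 and 4), and the histone demethylase gene KDM4B (7 and 8, then 4 and 5) came next with equal means. Among 14 basal or mesenchymal genes, 13 had a loop in any library, and KRT5 had none. Of these genes, 6 had more in both vehicle libraries, and none had more in both THZ1 libraries. The 6 included EGFR (12 and 13 with vehicle, 7 and 3 with THZ1) and CD44 (10 and 11, then 5 and 4). Genes without this difference included FOXC1 (9 and 9, then 9 and 9) and VIM (4 and 5, then 2 and 5). The median gene had 2.5 loops on the luminal list, 3.88 on the basal list and 1.5 among the 7 genes, with median windows of 100 kb, 90.7 kb and 69.8 kb. Of 8 neighbors of ERBB2, 3 had more loops in both vehicle libraries, and their windows share loops with that of ERBB2.

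By the sum of absolute differences in loop number over 4 libraries, the luminal gene most like GATA3 was SLC39A6 (difference of 1 loop; 3 and 3 with vehicle, 2 and 2 with THZ1). The gene most like ESR1 was ELF3 (difference of 2; 2 and 3, then 3 and 2), and the one most like TFF1 was CA12 (difference of 1; 2 and 0, then 1 and 1). The lists of condition-specific loops that the authors deposited separately held 989 loops for vehicle and 177 for THZ1, with none at any of the 7 genes. The 7 genes held 0.0465% to 0.0674% of a library's loops, so an absence from lists of this size says little about them.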

How the data were processed

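Arima-HiC reads of MDA-MB-231 cells, 2 vehicle and 2 THZ1 libraries, were processed by the authors with Juicer 1.6 (submitters' processing notes) and juicer_tools 1.19.02 (file headers). In the authors' loop lists (HiCCUPS), the deposited observed column holds counts of contacts. The deposited expected contacts are signal values on that scale, and the deposited FDRs are q-values (unit p-value). In the authors' domain lists (Arrowhead), the deposited score is the corner score. Caller settings are not given in the sources used here. All 61322 distinct anchors lay within the chromosomes of GRCh37.

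Genes came from GENCODE 44 lifted to GRCh37. The members, gene lists and tests were chosen with earlier results of these data known. All 7 genes, their partner genes, and loops called in all 4 libraries, in 1 condition only, or smallest or largest at a gene were named. The loops around genes and the test of matched loops were added after their values were seen. Loops were matched within 20 kb. Library values were compared by exact permutation over 6 splits in Python 3.11.15. Strength was tested with edgeR 4.0.16 (DESeq2 1.42.0 as an alternative) in R 4.3.3, with the log of the donut expected contacts as offset and Benjamini-Hochberg adjustment over all loops at 0.05, after leaving out loops with an expected count of 0, and was tested on simulated data. The shares of changed loops recovered in the simulated data are given with the test of matched loops. Intervals and counts cover counting error only.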

Additional observations from a re-analysis of the deposited data

How the results depend on the processing

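With 2 libraries per condition, no permutation test could pass the threshold, so the directions below say nothing about significance. The log2 ratio of the number of loops at the 7 genes turned to 0.22 with 25 kb anchors alone and ranged from -0.89 to -0.24 without 1 library. The log2 ratio of the median size turned to -0.060 with a 50 kb window and to -1.23 with 10 kb anchors alone, and ranged from 0.56 to 0.93 without 1 library. For the median enrichment it ranged from -0.57 to -0.02, and for genes held by domains from 0.42 to 1.58. Loops in vehicle alone numbered 3 with all libraries and 3 without either THZ1 library. Without vehicle replicate 1 or 2 they numbered 6 and 7, by a looser rule, since a call in the remaining vehicle library was enough. Loops in THZ1 alone numbered 0 with all libraries, and 1 and 0 without vehicle replicate 1 or 2. Without THZ1 replicate 1 or 2 they numbered 2 and 3, by the same looser rule. With all libraries, loops in THZ1 alone numbered 1 with a 10 kb match and 2 with identical anchors. No loop of the 7 genes was in the test of identical anchors, against 0 to 1 without 1 library and 4 with the 20 kb match. Without the expected contacts, by TMM and then by DESeq2 size factors, log2 changes turned to 0.71 and 0.72 (GATA3, 300 kb), 0.81 and 0.83 (GATA3, 60 kb), 0.17 (ERBB2, 35 kb, TMM), -0.48 (ESR1, 510 kb, TMM), and 0.19 and 0.21 (around ESR1, 825 kb). This scaling moved the median over all identical loops from -0.41 to -0.01 by TMM. Anchor widths differed between libraries at both GATA3 loops and at the ESR1 loop of 510 kb, so their counts cover areas of unequal size. The GATA3 loop of 60 kb had 29 and 38 contacts at 5 kb anchors with vehicle. With THZ1 it had 60 and 61 at 10 kb anchors. The ESR1 loop had 18 and 20 at 10 kb anchors with vehicle and 13 and 15 at 5 kb anchors with THZ1. For both, anchor width and condition cannot be told apart. Without 1 library, the GATA3 loop of 300 kb ranged from -1.21 (without vehicle replicate 1) to -0.19 (without vehicle replicate 2), the ERBB2 loop of 35 kb ranged from -0.42 to 0.082 (without vehicle replicate 2) and the ESR1 loop of 510 kb from -0.043 (without THZ1 replicate 2) to 0.51. The cause of these turns was not tested.

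Over 2623 loops with identical anchors, libraries with the same replicate number showed no shared deviation from their group means (correlation -0.009). Matched loops were not part of this check. This cannot show whether they were processed together. With replicate numbers as a block, the log2 ratio of loop numbers was -0.56 and that of the median size 0.74. No loop of the 7 genes was called, and the calls over all matched loops went from 1 weaker to 276 weaker and 19 stronger. With the replicate numbers of the THZ1 libraries crossed, the matched test called 1 weaker and 0 stronger. The cause of this difference was not tested.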
